A study of Mus musculus with 8 samples.

Results

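Interleukins are secreted signalling proteins through which leukocytes, stroma and tumour cells address one another, and their genes and those of their receptors share the symbol stem Il followed by a digit. All mouse protein-coding genes with such a symbol were taken from a table of read counts per gene, which gave 83 members among 27179 genes, of which 20983 were protein-coding. The symbol rule also took in the enzyme genes Il4i1 and Il4i1b, which are not interleukins, and left out partner chains and related ligands under other names, which are given separately. The data came from primary tumours of 4T1.13, a metastatic mouse mammary carcinoma line of BALB/c origin, grown from 100000 cells injected into the mammary fat pad of female BALB/c mice. The group named 4T1.13-miR-21-KD holds tumours of cells carrying a miArrest lentiviral inhibitor that sequesters mature miR-21, and 4T1.13-VC holds tumours of cells carrying the scrambled vector control. RNA was sequenced from 4 tumours per group. The labels give day 14 as the time of collection and the study's methods day 12. Mice were 7 to 8 weeks old when the cells were injected. Both vectors carry an mCherry reporter and hygromycin resistance, and the H1 promoter drives the inhibitor in the miR-21-KD vector. Each line was a pool of 6 clones, and the vector was present in the injected cells and not in the host, whose immune system was intact. The inhibitor therefore cannot be told apart from other differences between the pools. Each library is whole tumour RNA, so fewer cells of a type and less RNA per cell cannot be told apart.

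The families differ in how they signal. IL-1 family ligands bind receptors with a Toll-like intracellular domain and act through MyD88 and IRAK kinases, and the family holds its own antagonists and decoy receptors. Common gamma chain, common beta chain, IL-6, IL-12 and IL-10 family ligands bind paired receptor chains coupled to JAK kinases and STAT factors, whereas IL-17 receptors act through the adaptor Act1. IL-12, IL-15, IL-18 and IL-2 are associated with type 1 immunity of T helper 1, cytotoxic T and NK cells, and IL-4, IL-5, IL-13 and IL-33 with type 2 immunity of T helper 2 cells, innate lymphoid cells and eosinophils.

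The inhibitor targets the mature strand below, which RefSeq places in the Mir21a hairpin at chr11:86584120-86584141 (GRCm38.p6, minus strand). The capitals mark the seed, bases 2 to 8 counted from the 5′ end.
mmu-miR-21a-5p: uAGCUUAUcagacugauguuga
The table cannot show the mature strand or its sequestration, and the precursor gene Mir21a had 0 counts in all 8 tumours. A match to the seed (ATAAGCT) lay in the annotated 3′ untranslated region of 10 of the 81 members that have one (12.3%), against 7.13% of 20954 protein-coding genes. Of those members, 5 carried the longer match with a final A, printed here with 12 bases on the left and 8 on the right of the 7 capitals (GENCODE transcripts on GRCm38, written 5′ to 3′ on the transcript strand), since these are the members the inhibited miRNA could pair with over the longest stretch.
Il2ra, chr2:11693152-11693178, plus strand: tgacctagaagtATAAGCTaaaataaa
Il6ra, chr3:89869081-89869107, minus strand: ttttgactttttATAAGCTaagtcaac
Il12a, chr3:68698322-68698348, plus strand: gagcaagaactgATAAGCTattgtttt
Il21, chr3:37224580-37224606, minus strand: tcaagttcctttATAAGCTaatagttt
Il1rapl1, chrX:86743727-86743753, minus strand: aatttgtacattATAAGCTattttctg
Il33, Il6, Il6st, Il17d and Il2 held the 7-letter match alone. A letter match is a description of the sequence and not a measured site.

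The libraries were of even depth, with 12134849 to 13592695 counts per VC tumour and 12550898 to 12783800 per miR-21-KD tumour, so that 3 counts, the smallest number taken as detection, corresponded to 0.221 to 0.245 CPM (counts scaled to libraries of 1000000). The epithelial genes Epcam and Cdh1 were detected in every tumour and were called higher in the miR-21-KD tumours. Epcam had 40.6 to 124 CPM against 13.5 to 49.9 in the VC tumours (log2 fold change 1.93, edgeR adjusted p = 0.0182). Cdh1 had 89.2 to 147 against 16.8 to 74.2 CPM (1.52, adjusted p = 0.0185). Of the keratin markers, Krt14 was higher (3.08, adjusted p = 0.0110) and Krt18 lower (-1.15, adjusted p = 0.0374). Krt8 was not called (-0.88, adjusted p = 0.0870). The calls of Epcam, Cdh1 and Krt18 were each lost in at least 1 fit without a tumour. The leukocyte gene Ptprc (CD45) was higher in the miR-21-KD tumours, at 319.9 to 482 CPM against 132 to 279.6 (log2 fold change 0.99 ± 0.25 SE, adjusted p = 0.0180), a call that was lost without VC replicate 3 (0.87, adjusted p = 0.0536). Summed macrophage and monocyte markers spanned 5137 to 8005 CPM in the miR-21-KD tumours and 2514 to 3788.5 in the VC tumours with 7 of 7 genes called higher (background 19.6%, for each marker count of genes called higher with all 8 tumours), T cell markers 162 to 349 against 47.2 to 179.7 with 6 of 8, and eosinophil markers 48.9 to 87.8 against 11.2 to 45.7 with 2 of 3 tested, Epx being too low to test. Summed fibroblast markers spanned 5515 to 11488 against 1598 to 3721 CPM with 3 of 5 higher, NK cell markers 48.5 to 93.8 against 11.3 to 58.4 with 2 of 5, dendritic cell markers 169 to 314 against 48.9 to 159 with 2 of 6, mast cell markers 309 to 392 against 193 to 355 with 2 of 7, and endothelial markers 479 to 687 against 315 to 569 with 1 of 4, the mast cell (28.6%) and endothelial (25.0%) shares lying near the background. Of 5 epithelial markers 3 were higher and 1 lower, with sums of 698 to 1484 against 1274 to 2190.4 CPM. Neutrophil markers overlapped at 338 to 589 against 266 to 739.9 CPM, and B cell markers did so at 8.52 to 60.4 against 1.76 to 140.6 CPM, the highest being VC replicate 4. With the replicate block (background 23% higher and 22.1% lower), 7 T cell, 3 NK cell, 4 dendritic cell, 2 neutrophil and 4 fibroblast markers were higher and 2 epithelial markers lower, the other marker counts staying as given. Without VC replicate 3 (background 9.9%), 1 T cell, 3 macrophage and monocyte and 0 eosinophil markers were called higher. T cell markers called higher numbered 2 without miR-21-KD replicate 1 or 4 and 8 without VC replicate 4, and eosinophil markers 0 without VC replicate 2 or miR-21-KD replicate 1, 3 or 4. Over all fits without a tumour, the markers called higher were 1 to 8 for T cells, 3 to 7 for macrophages and monocytes, 0 to 2 for eosinophils, mast cells, neutrophils and endothelium, 1 to 5 for NK cells, 2 to 5 for dendritic cells, 2 to 4 for fibroblasts, 2 to 3 for epithelium and 0 to 1 for B cells. The part of these cell types in the results that follow was not tested. Levels set against Ptprc, given below, do not separate them.

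Of the 83 members, 56 had enough counts to test, 18 had a few counts and 9 had 0 counts in all 8 tumours. With edgeR's quasi-likelihood test and Benjamini-Hochberg adjustment over 14382 genes, 26 members were higher in the miR-21-KD tumours, which is 46.4% of those tested against 19.6% of all genes tested, and 2 were lower, Il18 and Il6ra, which is 3.57% against 19.5%. The median log2 fold change was 0.90 over the tested members and -0.014 over all genes. A called rise above 2-fold was found for 17 of the 56 tested members (30.4%, background 10.7%). By role, 17 of 32 tested receptor genes, 6 of 20 tested ligand genes and 3 of 4 tested antagonists or decoy receptors were called higher, and the difference between roles was not tested. The CPM of the groups did not overlap for 20 members, 19 of them higher (33.9%, background 16.3%) and 1, Il6ra, lower (1.79%, background 18.9%).

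The tested members Il17re, Il31ra, Il4, Il5, Il5ra and Il9r (6 genes) passed the filter on low counts while a VC tumour had under 10 counts, so their presence among the tested genes depended on the miR-21-KD tumours. Il4, Il5, Il17re and Il31ra were among the 17 members called above 2-fold, and Il4, Il5 and Il31ra among the 19 higher without overlap. Among the 49 members with at least 10 counts in every tumour, fitted with the other genes that met this requirement, 23 were higher against a background of 20.9%, and 1 was lower against 18.2%. The main fit left the pairing by replicate number out. With the replicate number as a block, 34 members were higher and 4 lower, against backgrounds of 23% and 22.1%. Other settings gave 31 higher and 5 lower members with DESeq2 (24% and 21.7% of all genes), 26 and 3 with limma-voom (20% and 20.4%), 27 and 1 with upper-quartile scaling (21.2% and 17.4%), 26 and 2 with library size scaling (18.7% and 20.3%) and 25 and 2 without the filter (12.7% and 12.8%). The count of higher members fell to 15 without VC replicate 2, 14 without VC replicate 3, 16 without miR-21-KD replicate 1 and 15 without miR-21-KD replicate 4, and was 28 without VC replicate 4, the tumour with the highest B cell markers. The count of lower members was 4 without VC replicate 4 or without miR-21-KD replicate 2, 1 without VC replicate 1, VC replicate 2 or miR-21-KD replicate 1, and 0 without VC replicate 3 or miR-21-KD replicate 4. The share of all genes called higher moved in the same refits, to 18.9%, 11.6%, 9.9% and 20.4% without VC replicates 1 to 4 and to 12.9%, 22.5%, 13.6% and 12.1% without miR-21-KD replicates 1 to 4, and that of genes called lower to 16.6%, 10.8%, 10.2% and 18.4% and to 13.7%, 24.3%, 12.2% and 11.1%.

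**Figure D1:**
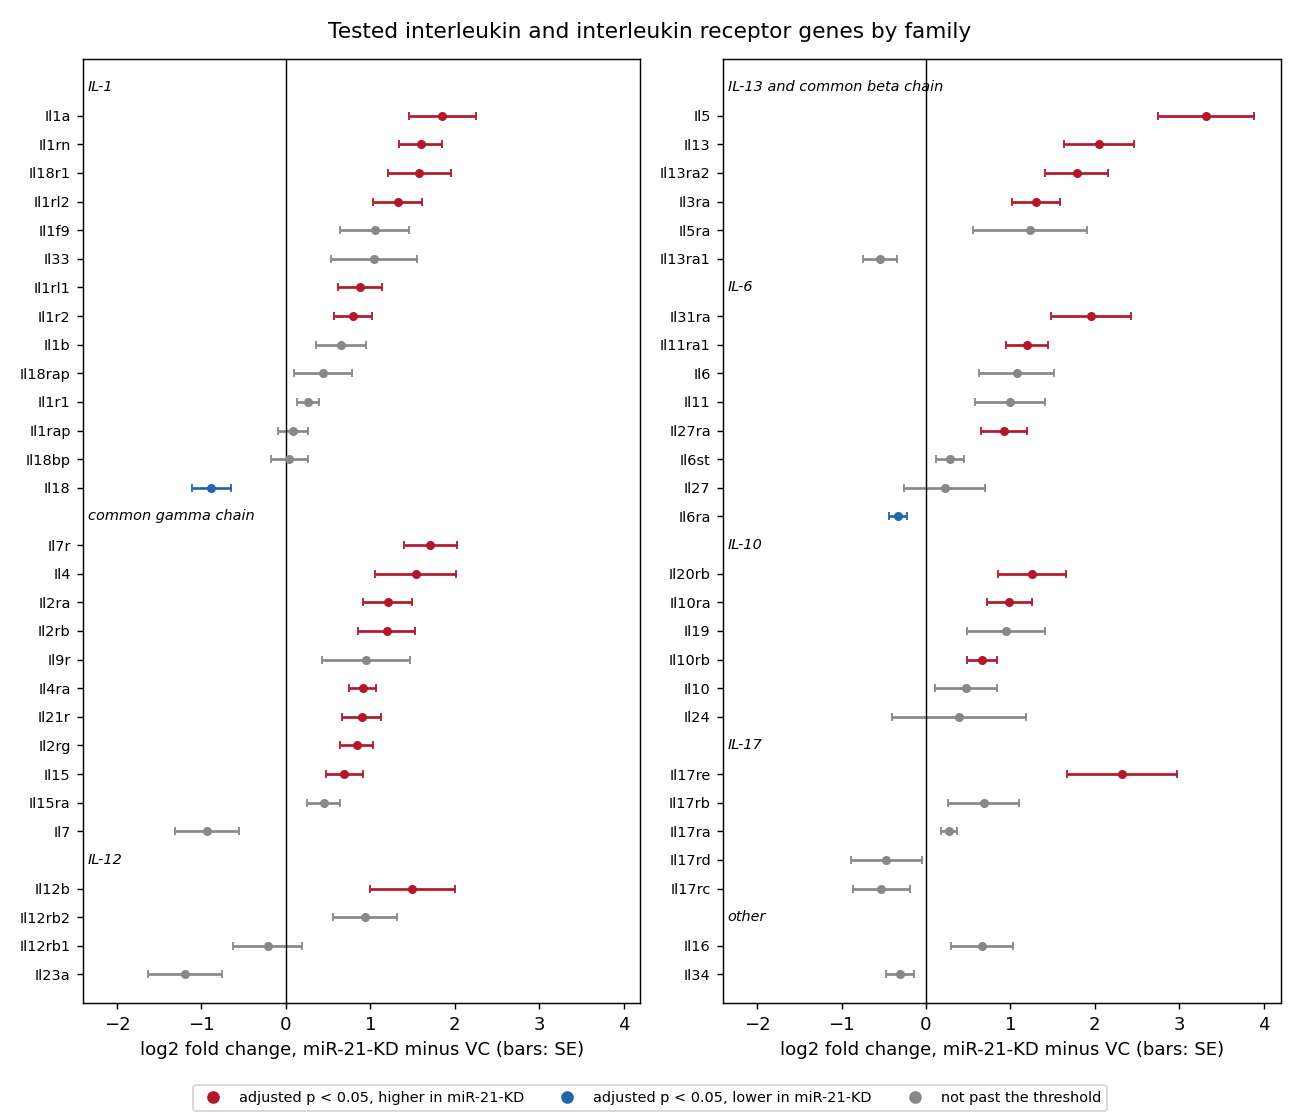
Log2 fold change (horizontal axis, miR-21-KD minus VC, edgeR) of the 56 tested interleukin and receptor genes by family, as points with standard errors. The 26 red genes lie right of 0 and the 2 blue ones, Il18 and Il6ra, left of it, and Il5 lies farthest right at 3.32.

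Among genes of type 2 immunity, 6 of 11 tested members were higher in the miR-21-KD tumours (54.5%, background 19.6%), namely Il4, Il5, Il13, Il4ra, Il13ra2 and Il1rl1. The other 5 did not pass, and a further 2 of the 13 listed, Il9 and Il25, had too few counts to test. The groups did not overlap for any of the 6 (54.5%, background 16.3%). The median log2 fold change over the 11 tested was 1.04. Of these members Il4, Il5, Il5ra and Il9r passed the filter through the miR-21-KD tumours, and among the 7 with at least 10 counts in every tumour 4 were called higher (57.1%, background 20.9%). The ligand genes Il5, Il13 and Il4 had the largest differences on the list beside the decoy receptor gene Il13ra2.

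Il5, whose product drives eosinophil growth and survival, had 1.77, 0.638, 0.473 and 0.654 CPM in the VC tumours and 8.81, 2.91, 13.6 and 10.6 CPM in the miR-21-KD tumours. All 4 miR-21-KD tumours lay above the VC tumours, of which replicate 1 was the highest. Its mean rose from 0.884 ± 0.596 to 8.96 ± 4.48 (SD, n = 4) CPM (log2 fold change 3.32 ± 0.57 SE, adjusted p = 0.00673). In counts, the VC tumours held 24, 8, 6 and 8 and the miR-21-KD tumours 109, 37, 167 and 135, so the fold of 9.96 rests on few reads in the control group. Il13, an inducer of alternative macrophage activation and mucus production, had 4.94, 2.31, 3.39 and 6.62 CPM in the VC tumours and 18.8, 7.86, 25.4 and 19.3 CPM in the miR-21-KD tumours. The lowest miR-21-KD tumour, replicate 2, was above the highest VC tumour (log2 fold change 2.04 ± 0.41 SE, adjusted p = 0.00953). Il4, the T helper 2 cytokine that shares a receptor chain with IL-13, had 3.17, 0.638, 0.709 and 2.45 CPM in the VC tumours and 5.09, 4.72, 5.19 and 5.40 CPM in the miR-21-KD tumours. The miR-21-KD tumours were close together while the VC tumours held 43, 8, 9 and 30 counts (log2 fold change 1.54 ± 0.48 SE, adjusted p = 0.0345). Il4 missed the threshold without VC replicate 2 or 3 or without miR-21-KD replicate 1, 3 or 4 (adjusted p from 0.0674 to 0.0784). Il33, an alarmin released from damaged stromal and epithelial cells, had 178, 43.4, 73.3 and 248 CPM in the VC tumours and 294, 164, 393 and 266 CPM in the miR-21-KD tumours. The groups overlapped, with VC replicates 1 and 4 inside the range of the miR-21-KD tumours, and the difference did not pass (log2 fold change 1.04 ± 0.51 SE, adjusted p = 0.133). With the replicate block Il33 had a log2 fold change of 1.29 (adjusted p = 0.0455), and without VC replicate 4 it had 1.50 (adjusted p = 0.0431). Il25, an epithelial ligand of the IL-17 family, had 0 counts in the VC tumours and a single count in each of miR-21-KD replicates 1 and 4, and Il9 had 0 counts throughout.

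Il4ra, the chain shared by the IL-4 and IL-13 receptors, was the most abundant receptor gene of the type 2 list in the miR-21-KD tumours per kilobase of exon, with 667, 518, 525 and 448 CPM in the VC tumours and 932, 962, 1262 and 900.1 CPM in the miR-21-KD tumours. Every miR-21-KD tumour was above every VC tumour, with replicate 3 apart from the other miR-21-KD tumours (log2 fold change 0.91 ± 0.16 SE, adjusted p = 0.00694). Il13ra2, which binds IL-13 without the signalling complex of Il4ra and is regarded as a decoy, had 23.8, 8.86, 10.6 and 16.8 CPM in the VC tumours and 65.7, 25.8, 59.0 and 57.1 CPM in the miR-21-KD tumours. Its groups did not overlap, and the closest values were 23.8 and 25.8 CPM (log2 fold change 1.79 ± 0.37 SE, adjusted p = 0.0105). Il1rl1 encodes ST2, the IL-33 receptor, and had 73.2, 30.9, 47.0 and 34.7 CPM in the VC tumours and 107, 78.7, 75.5 and 81.2 CPM in the miR-21-KD tumours. The highest VC tumour, replicate 1, lay just under the lowest miR-21-KD tumour (log2 fold change 0.88 ± 0.26 SE, adjusted p = 0.0297), and the call was lost without VC replicate 2, 3 or 4 or without miR-21-KD replicate 1, 3 or 4 (adjusted p from 0.0516 to 0.0750). Il13ra1, the signalling partner of Il4ra for IL-13, pointed the other way, with 410.1, 323, 410.2 and 246 CPM in the VC tumours and 199, 304, 251 and 200.0 CPM in the miR-21-KD tumours. The ranges overlapped and the difference did not pass (log2 fold change -0.54 ± 0.20 SE, adjusted p = 0.0600), whereas it did with the replicate block (log2 fold change -0.53, adjusted p = 0.0468), without VC replicate 4 (-0.68, adjusted p = 0.0220) and without miR-21-KD replicate 2 (-0.69, adjusted p = 0.0233). Il5ra (log2 fold change 1.24, adjusted p = 0.170), Il9r (0.95, adjusted p = 0.169) and Il17rb (0.68, adjusted p = 0.216) stayed below 5 CPM in all tumours and were not called, except Il9r without VC replicate 4 (1.67, adjusted p = 0.0188).

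**Figure D2:**
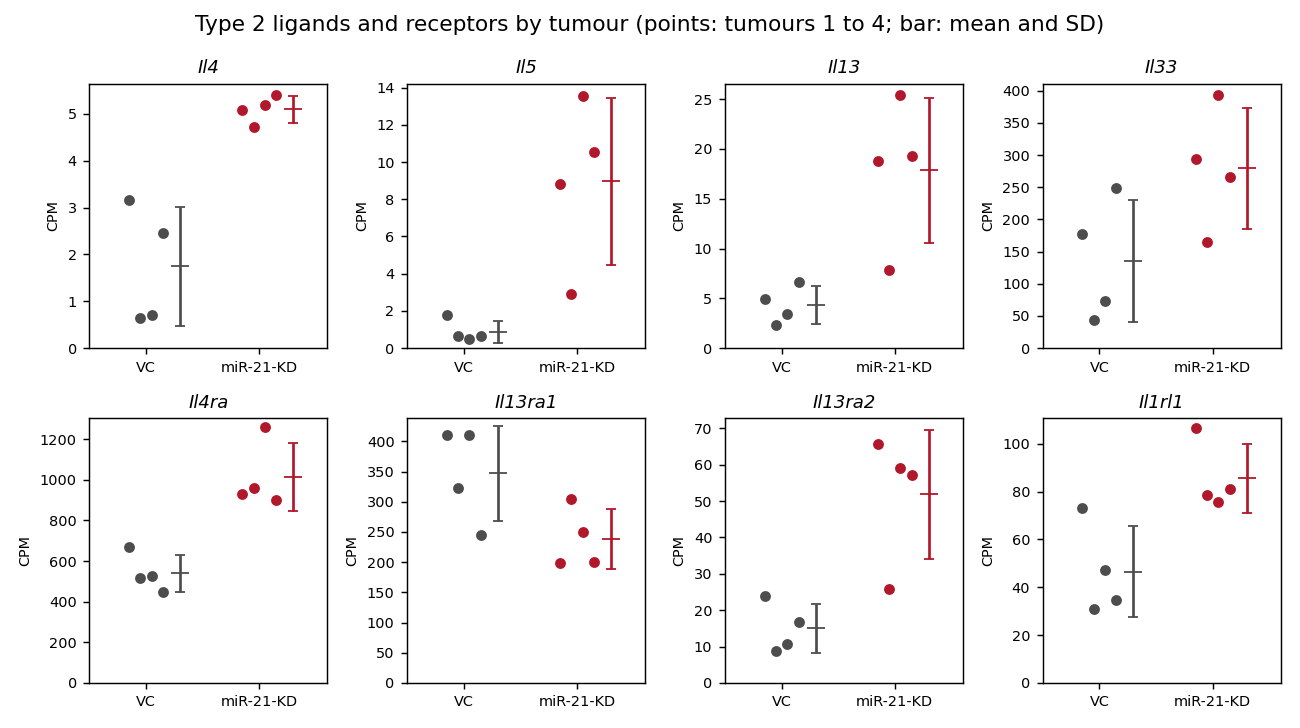
CPM (vertical axes, each from 0) of 8 type 2 genes in the 4 VC and 4 miR-21-KD tumours, with points for tumours and bars for mean and SD. The groups are apart for Il4, Il5, Il13, Il4ra, Il13ra2 and Il1rl1 and overlap for Il33 and Il13ra1, where the miR-21-KD mean is the lower one (238 against 347 CPM).

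Of 14 listed genes of type 2 immunity outside the interleukin symbols, 10 were called higher (71.4%, background 19.6%), on a list chosen with earlier results of these data known. The other 4 were Ccl24, with a log2 fold change of 0.05, and Tslp, Gata3 and Stat6, whose fold changes were below 0 and did not pass. The epithelial cytokine gene Tslp had 43.9 to 618 CPM in the miR-21-KD tumours against 473 to 1382 (log2 fold change -1.75 ± 0.67 SE, adjusted p = 0.0674), Gata3 had log2 fold change -0.53 ± 0.36 SE, adjusted p = 0.260, and Stat6, the transducer of IL-4 and IL-13, had 226 to 268 against 274 to 312 CPM without overlap (log2 fold change -0.23 ± 0.09 SE, adjusted p = 0.0636). Stat6 was called lower with the replicate block (-0.23, adjusted p = 0.0425), with DESeq2 (-0.21, adjusted p = 0.0304), with library size scaling (-0.26, adjusted p = 0.0488) and without miR-21-KD replicate 2 (-0.27, adjusted p = 0.0431). Tslp was called lower with DESeq2 (-1.74, adjusted p = 0.0431), without VC replicate 4 (-1.996, adjusted p = 0.049996) and without miR-21-KD replicate 2 (-2.31, adjusted p = 0.0287). These 4 were named after their values were seen. The macrophage product Chil3 had 187 to 1191 CPM in the miR-21-KD tumours and 7.42 to 33.3 in the VC tumours (log2 fold change 5.32 ± 0.73 SE, adjusted p = 0.00523). The CCR4 ligands Ccl17 (log2 fold change 3.16 ± 0.45 SE, adjusted p = 0.00558) and Ccl22 (log2 fold change 1.85 ± 0.27 SE, adjusted p = 0.00571) were also higher without overlap of the groups. Siglecf, an eosinophil marker that alveolar macrophages also carry, was higher at 18.4 to 31.8 CPM against 2.36 to 14.5, alongside Il5, and lost its call in 5 of the 8 fits without a tumour (adjusted p from 0.0503 to 0.0558), while Prg2, a defining eosinophil granule gene, had 2.99 to 10.1 against 1.28 to 8.83 CPM and did not pass (log2 fold change 0.62 ± 0.60 SE, adjusted p = 0.435).

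Il4, Il13 and Il5 lie within 112.6 kb on chromosome 11 (53612460 to 53725103, GRCm38.p6), and all 3 were called higher. Their promoter windows are printed because the genes moved together, each from 250 bases before to 50 bases after a RefSeq start, written 5′ to 3′ on the gene strand, with matches on either strand to GATAA, the core letters bound by GATA factors, in capitals.
Il4, chr11:53618616-53618915, minus strand: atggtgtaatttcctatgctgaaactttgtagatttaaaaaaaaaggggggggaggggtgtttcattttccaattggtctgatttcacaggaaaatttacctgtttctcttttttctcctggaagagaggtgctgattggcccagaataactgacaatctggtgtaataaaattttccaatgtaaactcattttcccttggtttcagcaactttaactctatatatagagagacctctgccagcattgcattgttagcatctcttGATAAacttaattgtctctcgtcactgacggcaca
Il13, chr11:53634653-53634952, minus strand: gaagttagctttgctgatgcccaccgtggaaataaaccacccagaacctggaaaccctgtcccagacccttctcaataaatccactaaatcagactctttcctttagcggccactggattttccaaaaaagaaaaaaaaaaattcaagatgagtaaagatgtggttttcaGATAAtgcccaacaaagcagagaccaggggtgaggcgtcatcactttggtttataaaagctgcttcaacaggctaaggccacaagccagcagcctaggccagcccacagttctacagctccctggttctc
Il5, chr11:53720544-53720843, plus strand: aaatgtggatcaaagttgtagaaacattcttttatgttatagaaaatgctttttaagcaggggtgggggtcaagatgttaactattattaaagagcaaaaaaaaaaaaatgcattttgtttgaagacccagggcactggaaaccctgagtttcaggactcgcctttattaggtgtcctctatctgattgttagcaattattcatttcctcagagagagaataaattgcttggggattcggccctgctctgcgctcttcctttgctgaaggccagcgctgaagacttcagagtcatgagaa
GATAA occurred 1 time in the Il4 and Il13 windows and 0 times in that of Il5, against 25.4% of 32851 promoter windows with a match. A second annotated Il4 start had 0 matches. TGANTCA, the letters of an AP-1 site, was in 0 of these windows and in 7.81% of all. GGAAA, the core letters of NFAT sites, occurred 5, 4 and 2 times in the order printed, and 61.3% of all windows held it. The windows are short, and a letter match is no measured binding.

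Other neighbours were inspected after their values had been seen, and members less than 500 kb apart formed 14 groups, the 3 genes above included. On chromosome 1, Il1r2, Il1r1, Il1rl2, Il1rl1, Il18r1 and Il18rap span 467 kb, and 4 of the 6 were higher (background 19.6%), with Il1r1 and Il18rap not past the threshold. Il4ra and its neighbour Il21r on chromosome 7 were both higher. In the IL-1 ligand cluster on chromosome 2, Il1rn was higher, Il1f9 was not called, and Il1f8, Il1f6, Il1f5 and Il1f10 had 0 counts in all tumours. Il24, Il19 and Il10, tested members of a group of 4 on chromosome 1, were not called. Neighbours also differed: Il17re was higher and Il17rc (log2 fold change -0.53) not called, and of the pairs Il2ra and Il15ra, Il31ra and Il6st, and Il1a and Il1b the first was higher and the second not called. Il12rb2 was not called beside the untested Il23r. The pairs Il17a and Il17f, Il22ra2 and Il20ra, Il2 and Il21, and Il4i1 and Il4i1b were too low to test.

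**Figure D3:**
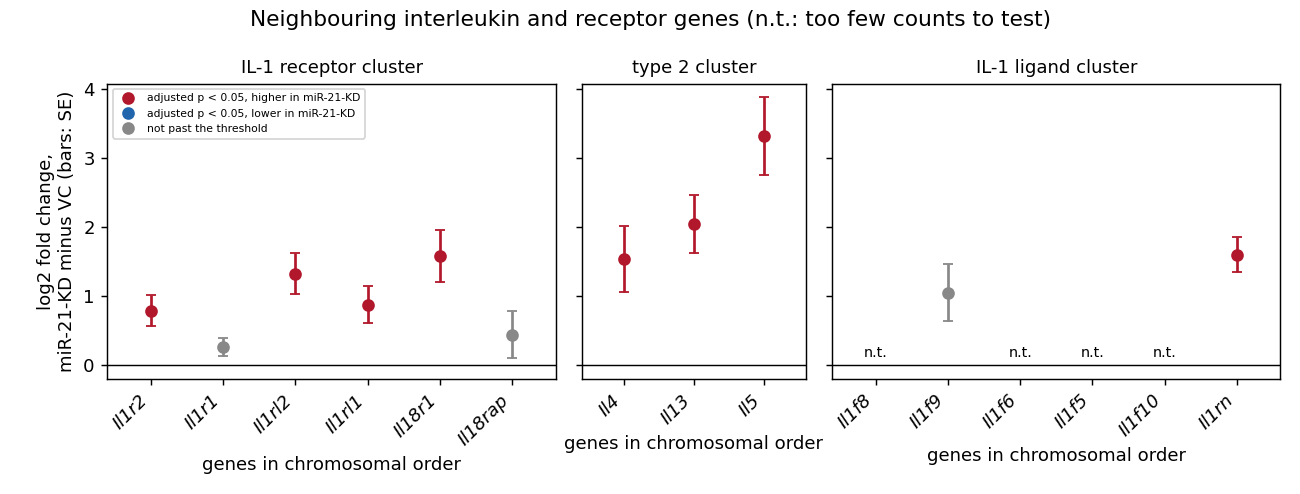
Log2 fold change with standard error (vertical axis, miR-21-KD minus VC) of neighbouring members in chromosomal order, spaced evenly and not to distance. In all, 4 of 6 genes of the IL-1 receptor cluster and all 3 of the type 2 cluster are red, called higher, and in the IL-1 ligand cluster only Il1rn is.

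Among type 1 members, 5 of 11 tested were higher (45.5%, background 19.6%), namely Il12b, Il15, Il2rb, Il18r1 and Il27ra. Il18 was lower (9.09%, background 19.5%), the other 5 were not called, and Il2 and Il12a had too few counts to test. The median log2 fold change over the 11 tested was 0.69, and the difference from the type 2 median was not tested. When a tumour was left out, the count of type 1 members called higher was 1, 2, 1 and 5 without VC replicates 1 to 4 and 1, 5, 5 and 1 without miR-21-KD replicates 1 to 4. The count of type 2 members was 6, 4, 4 and 7, and then 4, 6, 4 and 4, in the same order, and the shares of all genes called in these refits are those given above.

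In the IL-12 family, 1 of 4 tested members was called higher (25.0%, background 19.6%). This was Il12b, the p40 subunit shared by IL-12 and IL-23, with 2.80, 0.878, 1.66 and 3.35 CPM in the VC tumours and 11.2, 4.79, 2.92 and 5.64 CPM in the miR-21-KD tumours. The ranges overlapped narrowly, since miR-21-KD replicate 3 was below VC replicate 4 (log2 fold change 1.50 ± 0.50 SE, adjusted p = 0.0441). Il12a, the p35 subunit that completes IL-12, fell under the filter, with 5, 1, 2 and 5 counts in the VC tumours and 24, 7, 7 and 21 in the miR-21-KD tumours. Its groups did not overlap, and in a fit without the filter its log2 fold change was 2.13 ± 0.61 (SE, adjusted p = 0.0298). Il23a, the p19 subunit of IL-23, had 15.6, 19.4, 19.4 and 12.4 CPM in the VC tumours and 2.26, 13.3, 7.06 and 6.50 CPM in the miR-21-KD tumours. In miR-21-KD, 3 tumours were below all VC tumours and replicate 2 was inside their range (log2 fold change -1.20 ± 0.43 SE, adjusted p = 0.0560). It passed with the replicate block (log2 fold change -1.36, adjusted p = 0.0267), with DESeq2 (-1.18, adjusted p = 0.0189), with limma-voom (-1.42, adjusted p = 0.0259) and without miR-21-KD replicate 2 (-1.67, adjusted p = 0.0104). The fold changes of Il12a and Il23a, the partners of p40, had opposite signs, which describes transcripts and not the assembled cytokines. The call of Il12b was lost without VC replicate 1, 2 or 3 or without miR-21-KD replicate 1 or 4 (adjusted p from 0.0583 to 0.117).

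Il12rb1, the receptor chain common to IL-12 and IL-23, had 5.16, 5.82, 11.5 and 19.9 CPM in the VC tumours and 9.54, 10.1, 6.90 and 9.94 CPM in the miR-21-KD tumours. VC replicate 4 was the highest and the ranges overlapped (log2 fold change -0.22 ± 0.41 SE, adjusted p = 0.694), with a value of 0.28 when VC replicate 4 was left out. Il12rb2, the second IL-12 chain, had 3.65 to 11.2 CPM in the miR-21-KD and 2.23 to 4.50 in the VC tumours (log2 fold change 0.94 ± 0.38 SE, adjusted p = 0.0809), and passed without miR-21-KD replicate 3 (1.16, adjusted p = 0.0447). Il23r had 0 to 5 counts in the VC tumours and 2 to 9 in the miR-21-KD tumours.

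Il15, a survival factor for NK and memory CD8 T cells, had 7.08, 4.39, 8.20 and 7.68 CPM in the VC tumours and 12.9, 8.88, 11.0 and 11.4 CPM in the miR-21-KD tumours. The closest tumours of the groups were at 8.20 and 8.88 CPM (log2 fold change 0.69 ± 0.22 SE, adjusted p = 0.0356). Il18, an inducer of interferon gamma that is matured by caspase 1, had 9.29, 14.4, 14.2 and 16.5 CPM in the VC tumours and 9.70, 7.15, 5.52 and 7.12 CPM in the miR-21-KD tumours. All but 1 of the miR-21-KD tumours were below all VC tumours, and miR-21-KD replicate 1 was just above VC replicate 1 (log2 fold change -0.88 ± 0.23 SE, adjusted p = 0.0183). Il2, the T cell growth factor, had 0, 1, 1 and 2 counts in the VC tumours and 2, 4, 2 and 6 in the miR-21-KD tumours, at or near the limit of detection. Il18r1, the binding chain of the IL-18 receptor, had 9.96, 2.79, 8.04 and 7.68 CPM in the VC tumours and 31.5, 19.3, 14.9 and 19.6 CPM in the miR-21-KD tumours. The groups were apart (log2 fold change 1.58 ± 0.37 SE, adjusted p = 0.0143), while the accessory chain gene Il18rap, with 15.7 to 24.0 against 7.85 to 25.0 CPM, did not pass (log2 fold change 0.44 ± 0.34 SE, adjusted p = 0.324). The call of Il15 was lost without VC replicate 1, 2 or 3 or without miR-21-KD replicate 1, 3 or 4 (adjusted p from 0.0533 to 0.0875), and that of Il18 without VC replicate 3 or without miR-21-KD replicate 4 (adjusted p from 0.0508 to 0.0512). Of 12 type 1 genes outside the interleukin symbols, 5 were higher (41.7%, background 19.6%). They included the T-box factor gene Eomes (log2 fold change 1.96 ± 0.48 SE, adjusted p = 0.0160), Nos2 (log2 fold change 1.02 ± 0.25 SE, adjusted p = 0.0159) and Stat4, the transducer of IL-12 (log2 fold change 1.31 ± 0.38 SE, adjusted p = 0.0263), which lost its call in 4 of the 8 fits without a tumour (adjusted p from 0.0531 to 0.0750). By contrast, Ifng, named after its values were seen, at 2.60 to 6.97 against 0.160 to 4.01 CPM, did not pass (log2 fold change 1.49 ± 0.66 SE, adjusted p = 0.0997) except without VC replicate 4 (2.06, adjusted p = 0.0404).

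**Figure D4:**
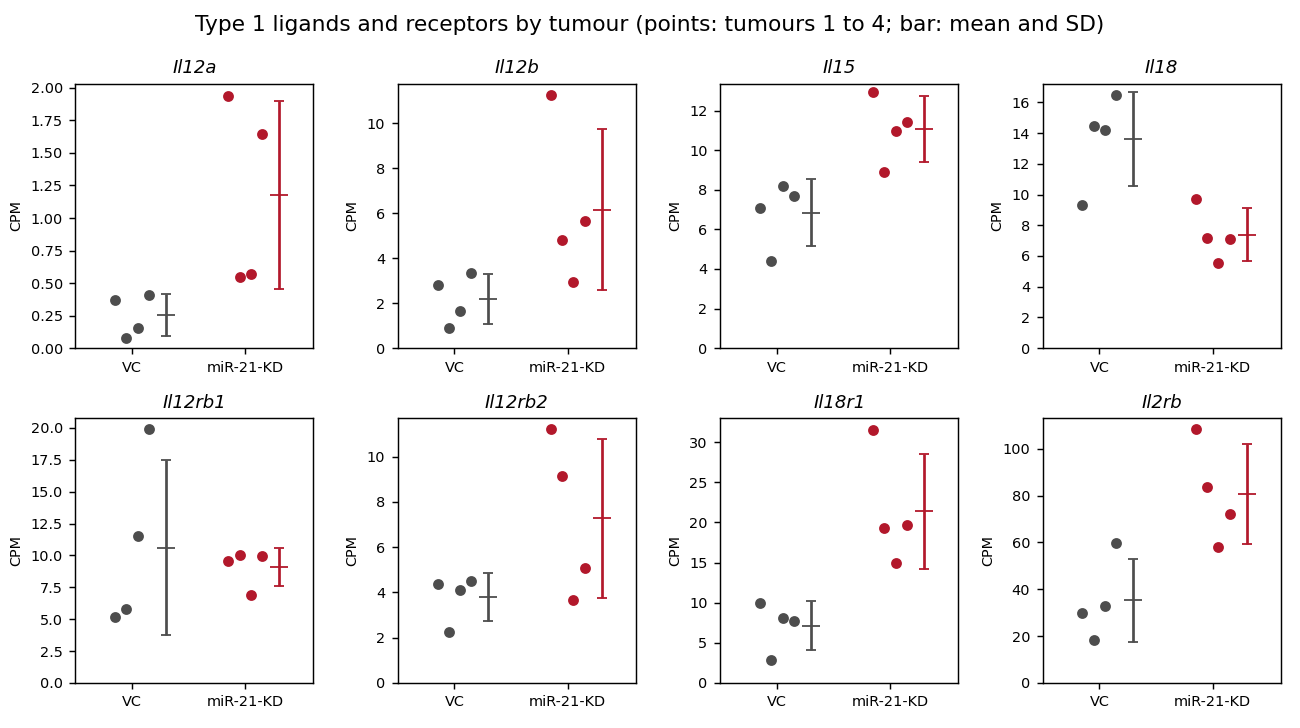
CPM (vertical axes, each from 0) of 8 type 1 genes in the VC and miR-21-KD tumours, with points for tumours and bars for mean and SD. Il18r1 and Il15 are higher in all miR-21-KD tumours and so is Il12a, which stays below 2 CPM, while the Il18 mean falls from 13.6 to 7.37 CPM.

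In the IL-1 family, 6 of 14 tested members were higher (42.9%, background 19.6%) and Il18 was lower (7.14%, background 19.5%). The other 7 were not called, and a further 6 of the 20 members had 0 counts in all tumours. Il1rn, the receptor antagonist that blocks IL-1 signalling, had 86.1, 50.6, 66.3 and 95.3 CPM in the VC tumours and 303, 157, 189.7 and 254 CPM in the miR-21-KD tumours. The lowest miR-21-KD tumour was well above the highest VC tumour, and the mean rose from 74.6 ± 20.1 to 226 ± 65.0 (SD, n = 4) CPM (log2 fold change 1.60 ± 0.25 SE, adjusted p = 0.00601). Il1a, an agonist of the same receptor, had 2.73, 3.27, 3.31 and 8.34 CPM in the VC tumours and 16.7, 9.90, 14.9 and 22.3 CPM in the miR-21-KD tumours. All miR-21-KD tumours were higher, the nearest VC tumour being replicate 4, which stood apart from the other VC tumours (log2 fold change 1.85 ± 0.40 SE, adjusted p = 0.0111). Il1b, the inflammasome-processed agonist, had 176, 66.0, 92.8 and 117 CPM in the VC tumours and 236, 187, 138 and 150.4 CPM in the miR-21-KD tumours. VC replicate 1 lay within the miR-21-KD range and the difference did not pass (log2 fold change 0.65 ± 0.29 SE, adjusted p = 0.105), although it did with the replicate block (log2 fold change 0.71, adjusted p = 0.0339) and without VC replicate 1 (0.95, adjusted p = 0.0221). Its exons overlap the antisense gene Il1bos, which had at most 2.18 CPM.

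Among IL-1 receptors, Il1rl2, which binds the IL-36 cytokines, had 8.26, 5.03, 5.12 and 4.25 CPM in the VC tumours and 21.7, 10.7, 13.1 and 11.4 CPM in the miR-21-KD tumours. Its groups did not overlap (log2 fold change 1.33 ± 0.29 SE, adjusted p = 0.0118). Il1rap, the accessory chain used by the IL-1, IL-33 and IL-36 receptors, had 72.5, 67.2, 68.4 and 41.7 CPM in the VC tumours and 76.7, 64.8, 66.5 and 56.7 CPM in the miR-21-KD tumours. The values interleaved (log2 fold change 0.08 ± 0.17 SE, adjusted p = 0.722), and leaving out VC replicate 4 turned the sign (-0.07). The main IL-1 receptor gene Il1r1 (log2 fold change 0.26 ± 0.13 SE, adjusted p = 0.131; 0.27 and adjusted p = 0.0278 with the replicate block) had 159.8 to 216 against 128 to 178 CPM, and the decoy receptor gene Il1r2 was higher at 39.0 to 59.3 against 19.5 to 35.4 CPM (log2 fold change 0.79 ± 0.23 SE, adjusted p = 0.0254). The IL-18 antagonist gene Il18bp had overlapping ranges (log2 fold change 0.04 ± 0.22 SE, adjusted p = 0.895). Il1f9, which encodes IL-36 gamma, had 4.30 to 13.1 against 2.60 to 7.23 CPM and was not called (log2 fold change 1.05 ± 0.41 SE, adjusted p = 0.0699), but was with the replicate block (1.07, adjusted p = 0.00703), without VC replicate 1 (1.46, adjusted p = 0.0229) and without miR-21-KD replicate 3 (1.27, adjusted p = 0.0442). The call of Il1r2 was lost without VC replicate 2 or 3 or without miR-21-KD replicate 1 (adjusted p from 0.0630 to 0.0692). With the block, 10 members of the family were higher.

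The common gamma chain family had 8 of 11 tested members called higher (72.7%, background 19.6%), namely the ligands Il4 and Il15 and the receptor genes Il7r, Il2ra, Il2rb, Il4ra, Il21r and Il2rg. The other 3 were not called, and Il2, Il9 and Il21 had too few counts. Among the 9 with at least 10 counts in every tumour, which leaves out Il4 and Il9r, 7 were higher (77.8%, background 20.9%). Il7r, which marks naive and memory T cells and innate lymphoid cells, had 27.0, 10.8, 19.0 and 24.8 CPM in the VC tumours and 101, 60.6, 46.7 and 59.7 CPM in the miR-21-KD tumours. The lowest miR-21-KD tumour, at 46.7 CPM, was above the highest VC tumour, at 27.0 CPM (log2 fold change 1.71 ± 0.32 SE, adjusted p = 0.00779). Its ligand gene Il7, a stromal product, had 1.70 to 5.11 against 3.35 to 8.67 CPM (log2 fold change -0.93 ± 0.38 SE, adjusted p = 0.0785), and passed without VC replicate 4 (-1.14, adjusted p = 0.0347) and without miR-21-KD replicate 2 (-1.25, adjusted p = 0.0266). Il2ra, the CD25 chain of activated and regulatory T cells, had 21.8, 10.1, 18.4 and 28.2 CPM in the VC tumours and 55.5, 50.7, 36.2 and 38.7 CPM in the miR-21-KD tumours. The groups were separate (log2 fold change 1.21 ± 0.29 SE, adjusted p = 0.0145), and this was the single gene called higher with a seed match.

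Il2rg, the shared chain that gives the family its name, had 128, 82.5, 117 and 168 CPM in the VC tumours and 253, 214, 193 and 227 CPM in the miR-21-KD tumours. Its groups did not overlap (log2 fold change 0.84 ± 0.20 SE, adjusted p = 0.0141). Il2rb, shared by the IL-2 and IL-15 receptors, had 29.9, 18.2, 33.0 and 59.9 CPM in the VC tumours and 108, 83.9, 57.9 and 72.1 CPM in the miR-21-KD tumours. VC replicate 4 was above the lowest miR-21-KD tumour (log2 fold change 1.19 ± 0.34 SE, adjusted p = 0.0257). Il21r was also called higher, at 46.1 to 72.7 against 24.4 to 48.6 CPM (log2 fold change 0.90 ± 0.23 SE, adjusted p = 0.0183). Il15ra did not pass (log2 fold change 0.45 ± 0.20 SE, adjusted p = 0.0996). Il21, a product of follicular helper T cells, had 2, 2, 3 and 5 counts in the VC and 12, 4, 5 and 13 in the miR-21-KD tumours. Il2rb lost its call without VC replicate 1 or 3 or without miR-21-KD replicate 1 or 4 (adjusted p from 0.0525 to 0.0693), and Il21r without VC replicate 2 or 3 or without miR-21-KD replicate 4 (adjusted p from 0.0520 to 0.0531).

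Beyond the type 2 genes described, the IL-13 and common beta chain group held Il3 and Il3ra. Of its 6 tested members, 4 were higher (66.7%, background 19.6%), namely Il5, Il13, Il13ra2 and Il3ra, with a median log2 fold change of 1.54 over the 6. Among the 4 with at least 10 counts in every tumour, which leaves out Il5 and Il5ra, 3 were higher (75%, background 20.9%). Il3ra, the IL-3 binding chain found on basophils and plasmacytoid dendritic cells, had 5.31, 4.71, 7.33 and 9.81 CPM in the VC tumours and 19.2, 10.8, 15.5 and 21.5 CPM in the miR-21-KD tumours. The groups did not overlap (log2 fold change 1.30 ± 0.29 SE, adjusted p = 0.0119), whereas Il3 itself had 0 to 10 counts in the VC and 1 to 11 in the miR-21-KD tumours. Of 15 tested partner chains and related ligands without an Il symbol, 7 were higher (46.7%, background 19.6%) and 2, Ctf1 and Sigirr, lower (13.3%, background 19.5%). With the replicate block 9 were higher (60%, background 23%) and 2 lower (background 22.1%). Ebi3 (0.83, adjusted p = 0.0437) and Ifnlr1 (1.67, adjusted p = 0.00922) joined the 7. Ctf1 and Sigirr lost their calls without VC replicate 2, 3 or 4 or without miR-21-KD replicate 1, 3 or 4. The beta chain gene Csf2rb2 was higher at 233 to 323 against 68.2 to 153 CPM (log2 fold change 1.26 ± 0.25 SE, adjusted p = 0.00928), as were the ligand gene Osm (log2 fold change 1.50 ± 0.27 SE, adjusted p = 0.00735) and Crlf2, a chain of the TSLP receptor (log2 fold change 0.91 ± 0.19 SE, adjusted p = 0.0100).

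In the IL-6 family, 3 of 8 tested members were higher (37.5%, background 19.6%) and Il6ra was lower (12.5%, background 19.5%). The other 4 were not called, and Il31 and Il11ra2 had 1 count at most in any tumour. Among the 6 with at least 10 counts in every tumour, which leaves out Il27 and Il31ra, 2 were higher (33.3%, background 20.9%) and 0 lower (background 18.2%). Il31ra, a chain of the receptor for the itch cytokine IL-31, had 1.47, 0.319, 0.473 and 1.31 CPM in the VC tumours and 4.36, 2.99, 4.38 and 2.27 CPM in the miR-21-KD tumours. The groups were separate at levels under 5 CPM (log2 fold change 1.95 ± 0.47 SE, adjusted p = 0.0152). Il11ra1, the IL-11 binding chain, had 24.6, 13.6, 17.6 and 24.3 CPM in the VC tumours and 56.1, 29.9, 44.5 and 52.9 CPM in the miR-21-KD tumours. Its groups did not overlap (log2 fold change 1.20 ± 0.25 SE, adjusted p = 0.0100), but its copy Il11ra2 is nearly identical and had 0 counts, so reads of the copies may not have been separated. Il27ra, the IL-27 binding chain of lymphocytes, had 9.37, 9.09, 11.2 and 18.1 CPM in the VC tumours and 29.9, 17.4, 18.0 and 25.4 CPM in the miR-21-KD tumours. VC replicate 4 was above the lowest miR-21-KD tumours (log2 fold change 0.93 ± 0.27 SE, adjusted p = 0.0275).

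Il6ra, the IL-6 binding chain, had 60.7, 73.7, 61.3 and 57.2 CPM in the VC tumours and 53.6, 46.7, 55.2 and 45.8 CPM in the miR-21-KD tumours. All miR-21-KD tumours were below all VC tumours by a small margin, which gave the smallest fold of any member called (log2 fold change -0.33 ± 0.11 SE, adjusted p = 0.0379). Il6, a pleiotropic inflammatory ligand, had 16.4, 3.43, 6.30 and 7.77 CPM in the VC tumours and 14.6, 24.9, 20.3 and 11.7 CPM in the miR-21-KD tumours. VC replicate 1 fell within the miR-21-KD range and Il6 was not called (log2 fold change 1.07 ± 0.44 SE, adjusted p = 0.0832), but was with DESeq2 (1.09, adjusted p = 0.0360), with limma-voom (1.22, adjusted p = 0.0464) and without VC replicate 1 (1.62, adjusted p = 0.0151). Il6st, the gp130 chain through which the family signals, had 459, 355, 355 and 279 CPM in the VC tumours and 520.1, 453, 435 and 359 CPM in the miR-21-KD tumours. The ranges overlapped (log2 fold change 0.29 ± 0.17 SE, adjusted p = 0.196), and the replicate block gave 0.30 (adjusted p = 0.0315). Il11 behaved likewise at 10.3 to 27.2 against 3.91 to 14.7 CPM (log2 fold change 1.00 ± 0.41 SE, adjusted p = 0.0837), with 1.05 (adjusted p = 0.0261) in the block and 1.39 (adjusted p = 0.0298) without VC replicate 1, and 5 members of the family were higher with the block. Il27 stayed below 2 CPM (log2 fold change 0.22 ± 0.48 SE, adjusted p = 0.734). Il6ra was no longer called without VC replicate 1, 2 or 3 or without miR-21-KD replicate 1, 2 or 4 (adjusted p from 0.0535 to 0.0990), and Il27ra without VC replicate 1, 2 or 3 or without miR-21-KD replicate 1 or 4 (adjusted p from 0.0579 to 0.0746).

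In the IL-10 family, 3 of 6 tested members were higher (50%, background 19.6%), and all 3 were receptor genes. Il10rb, the chain shared by the receptors for IL-10, IL-22 and interferon lambda, had 98.2, 87.0, 79.2 and 102 CPM in the VC tumours and 184, 99.5, 138 and 159 CPM in the miR-21-KD tumours. MiR-21-KD replicate 2 was just under VC replicate 4 and the other miR-21-KD tumours were higher (log2 fold change 0.67 ± 0.18 SE, adjusted p = 0.0218). Il10ra, the IL-10 binding chain of leukocytes, had 64.5, 47.1, 48.5 and 101 CPM in the VC tumours and 165, 101, 111 and 140.0 CPM in the miR-21-KD tumours. VC replicate 4 and miR-21-KD replicate 2 were both at 101 CPM (log2 fold change 0.99 ± 0.27 SE, adjusted p = 0.0210). Il20rb, a chain for IL-19, IL-20 and IL-24, had 3.32, 4.95, 2.60 and 8.75 CPM in the VC tumours and 10.4, 7.0, 15.3 and 14.1 CPM in the miR-21-KD tumours. VC replicate 4 lay inside the miR-21-KD range (log2 fold change 1.26 ± 0.40 SE, adjusted p = 0.0375).

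Il10, the immunosuppressive ligand, had 13.6, 11.3, 7.72 and 7.36 CPM in the VC tumours and 6.95, 16.8, 21.9 and 9.94 CPM in the miR-21-KD tumours. The miR-21-KD tumours included both the lowest and the highest value (log2 fold change 0.47 ± 0.37 SE, adjusted p = 0.325). Il24 varied more within than between groups, with 13.7 to 254 CPM in the VC and 60.8 to 355 in the miR-21-KD tumours (log2 fold change 0.39 ± 0.80 SE, adjusted p = 0.716), and Il19 did not pass (log2 fold change 0.95 ± 0.46 SE, adjusted p = 0.127). Il22, a ligand for epithelial receptors, had 1 count in VC replicate 2 and 0 elsewhere, and Il20 likewise had 1 count in all. The receptor calls were lost without VC replicate 2 or 3 or without miR-21-KD replicate 1 or 4 (adjusted p from 0.0530 to 0.0608) for Il10ra, without VC replicate 2 or 3 or without miR-21-KD replicate 1 or 4 (adjusted p from 0.0501 to 0.0652) for Il10rb and without VC replicate 1, 2 or 3 or without miR-21-KD replicate 1, 3 or 4 (adjusted p from 0.0632 to 0.0942) for Il20rb.

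The IL-17 family was carried by its receptors, since all 6 ligands were too low to test, and 1 of 5 receptor genes was called higher (20%, background 19.6%). Among the 4 with at least 10 counts in every tumour, which leaves out Il17re, 1 was higher (25%, background 20.9%), namely Il17ra. Il17a had 0 counts in all 8 tumours, which allows up to 0.245 CPM in any one of them, and Il17f had 0, 1, 0 and 0 counts in the VC and 0, 2, 2 and 0 in the miR-21-KD tumours. Il17re, a chain of the IL-17C receptor, had 1.92, 1.12, 1.58 and 0.409 CPM in the VC tumours and 5.90, 1.18, 8.03 and 10.3 CPM in the miR-21-KD tumours. Of the miR-21-KD tumours, 3 were above the VC tumours and replicate 2 was within their range (log2 fold change 2.33 ± 0.65 SE, adjusted p = 0.0240). Il17ra, the chain shared across the family, had 84.4, 65.9, 72.3 and 78.7 CPM in the VC tumours and 100.3, 89.5, 88.5 and 85.2 CPM in the miR-21-KD tumours. The groups did not overlap although the difference was small and just missed the threshold (log2 fold change 0.27 ± 0.10 SE, adjusted p = 0.0531), which it passed with the replicate block (0.27, adjusted p = 0.0337) and without VC replicate 1 (0.33, adjusted p = 0.0308). Il17rc (log2 fold change -0.53 ± 0.34 SE, adjusted p = 0.237) and Il17rd (log2 fold change -0.47 ± 0.41 SE, adjusted p = 0.390) were not called. Il17re lost its call without VC replicate 2 or 3 or without miR-21-KD replicate 3 or 4 (adjusted p from 0.0564 to 0.0671). Il16 and Il34, outside the families, did not pass (log2 fold change 0.67 ± 0.37 SE, adjusted p = 0.172, and log2 fold change -0.30 ± 0.17 SE, adjusted p = 0.171), while Il16 did with the replicate block (0.72, adjusted p = 0.0468) and without VC replicate 4 (1.10, adjusted p = 0.0200). Il4i1 and Il4i1b had 6 counts at most.

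Downstream genes were read from lists chosen with earlier results of these data known. Of 16 JAK, STAT and SOCS genes, 7 were higher (43.8%, background 19.6%), among them the feedback inhibitors Socs2 (log2 fold change 1.51 ± 0.26 SE, adjusted p = 0.00665) and Socs1 (log2 fold change 0.66 ± 0.14 SE, adjusted p = 0.0105) and the transducer Stat5b (log2 fold change 0.48 ± 0.09 SE, adjusted p = 0.00700). Of 12 genes of IL-1 and IL-17 signalling, 4 were higher (33.3%, background 19.6%) and 3 lower (25.0%, background 19.5%). With the replicate block 6 were higher (50%, background 23%), Tollip (0.27, adjusted p = 0.0423) and Pycard (0.83, adjusted p = 0.0271) joining the 4, and 3 lower (background 22.1%). Irak1 was lower at 99.9 to 120.2 against 150.2 to 183 CPM (log2 fold change -0.57 ± 0.10 SE, adjusted p = 0.00688), Casp1, which processes the IL-1 beta and IL-18 precursors, was lower as well (log2 fold change -0.84 ± 0.17 SE, adjusted p = 0.00974), and the ubiquitin ligase gene Traf6 was higher (log2 fold change 0.62 ± 0.12 SE, adjusted p = 0.00777).

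Levels of different genes were compared per kilobase of annotated exon. In the VC tumours the highest members were Il24 (105 CPM per kb), Il13ra1 (93.5), Il4ra (89.9), Il1b (59.3) and Il2rg (51.9). In the miR-21-KD tumours Il4ra was first (169), followed by Il24 (137), Il33 (96.8), Il1b (93.4), Il2rg (92.8) and Il13ra1 (64.2). The spread of Il24 between tumours was larger than the distance between these neighbours. Summed over all members, the level was 2506 to 3528 CPM in the VC tumours and 4099 to 4769 in the miR-21-KD tumours.

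Since Ptprc itself was higher, though not past the threshold without VC replicate 3, each tested member was also set against the Ptprc count of its own tumour, a ratio that does not depend on the scaling between libraries. On this scale 5 members were higher without overlap (8.93%, background 1.53%), namely Il1rn, Il1a, Il5, Il13 and Il7r. Of these, Il5 passed the filter on low counts through the miR-21-KD tumours. Another 7 were lower without overlap (12.5%, background 53.5%), namely Il18bp, Il18, Il23a, Il17ra, Il17rd, Il6ra and Il34, and 44 overlapped. The median difference was -0.12 on the log2 scale. Each of the 12 had an exact two-sided permutation p of 0.0286, the smallest that 4 against 4 tumours allow, and 0.0519 after Benjamini-Hochberg adjustment over all 14382 tested genes. These splits were not paired. Within same-numbered pairs, counted after seeing the data, 7 members were higher in all 4 pairs (12.5%, background 4.24%), Il13ra2 and Il31ra joining the 5, and 15 were lower in all 4 pairs (26.8%, background 72.4%), Il1r1, Il1r2, Il6st, Il13ra1, Il12rb1, Il15ra, Il17rc and Il7 joining the 7. No test of the ratios within pairs was made.

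Il1rn had 424, 383, 471 and 341 counts per 1000 Ptprc counts in the VC tumours and 628, 492, 588 and 676 in the miR-21-KD tumours. Il5 had 8.72, 4.83, 3.36 and 2.34 against 18.3, 9.09, 42.0 and 28.1, and Il13 had 24.3, 17.5, 24.1 and 23.7 against 39.1, 24.6, 78.7 and 51.2. The Il5 and Il13 ranges came close in miR-21-KD replicate 2, the lowest of its group for both. Il7r had 133, 81.6, 135 and 88.9 against 209, 189, 145 and 159 and Il1a 13.4, 24.8, 23.5 and 29.8 against 34.7, 31.0, 46.0 and 59.4. On the other side, Il18 had 45.8, 109, 101 and 59.1 against 20.1, 22.4, 17.1 and 19.0, a difference of -1.92 on the log2 scale. Il4, with 0.86, and Il4ra, with -0.13, overlapped between groups on this scale, as did the receptor genes Il2rg (-0.16) and Il10ra (-0.00). The ratio does not separate leukocyte types, and members that carcinoma or stromal cells can also transcribe have no leukocyte denominator of their own.

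**Figure D5:**
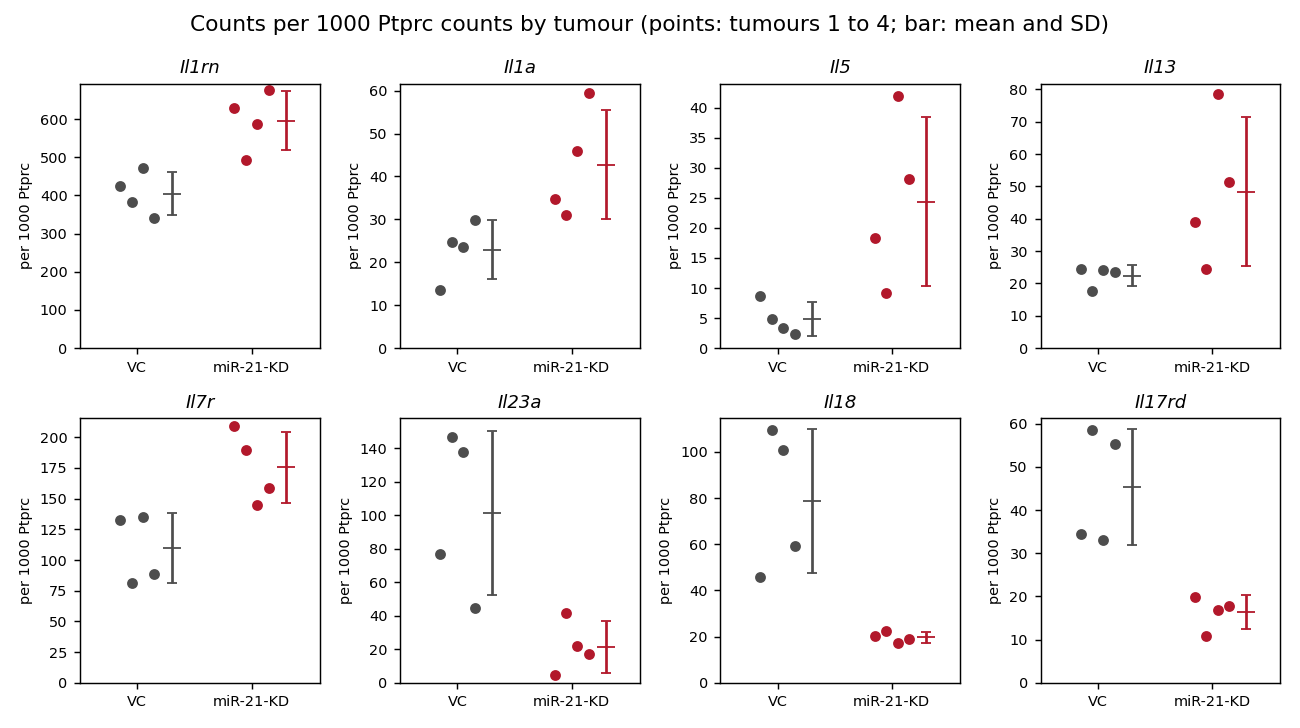
Counts per 1000 Ptprc counts (vertical axes, each from 0) of 8 members in the VC and miR-21-KD tumours, with points for tumours and bars for mean and SD. Il1rn, Il1a, Il5, Il13 and Il7r are higher and Il23a, Il18 and Il17rd lower in all miR-21-KD tumours, with a narrow gap for Il13, from 24.3 to 24.6.

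The members holding the letters that pair with the miR-21 seed did not share a direction. Il2ra was higher and Il6ra lower, while Il33, Il6 and Il6st were tested and not called, and Il12a, Il21, Il2, Il17d and Il1rapl1 were too low to test. A match was present in 1 of the 26 members called higher (3.85%) and in 4 of the 30 other tested members (13.3%). Il12a and Il21 had their highest counts in miR-21-KD replicates 1 and 4, at 24 and 21 for Il12a and 12 and 13 for Il21. The vector acts in the injected cells, and which cells transcribed these genes was not measured.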

How the data were processed

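Whole tumours (4 VC and 4 miR-21-KD) were compared from a table of raw read counts per Entrez gene that the authors deposited. The submitters' processing notes name Subread, featureCounts, edgeR, limma and the build mm10, with versions and the strand setting not given in the sources used here, so reads of overlapping genes, which 24 members have, cannot be assigned to a strand. Symbols, coordinates and promoters came from RefSeq (GRCm38.p6), and exon lengths and 3′ untranslated regions from GENCODE M21. All 83 members were matched in it by symbol. The members, lists and rule for named genes were chosen with earlier results of these data known. That rule gave values in every tumour for the 4 called members with the largest fold change in each family, the defining ligands of type 1, 2 and 3 immunity, Il1a, Il1b, Il6, Il10 and the shared receptor chains, and for other genes up to 3 with the smallest adjusted p in each list. Other non-member genes were named after their values were seen.

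Genes were filtered with filterByExpr (minimum count 10, total 15), scaled by TMM and fitted with edgeR 4.0.16 (glmQLFit, robust, and glmQLFTest) in R 4.3.3. P-values were adjusted by Benjamini-Hochberg over 14382 genes at a threshold of 0.05. CPM used the TMM-scaled library sizes. The procedure was tested on simulated data, where DESeq2 made more false calls than edgeR and limma-voom. Alternatives were DESeq2 1.42.0, limma-voom (limma 3.58.1), upper-quartile and library size scaling, no filter, at least 10 counts in every tumour, a replicate block and leaving out each tumour. Ratios to Ptprc were tested with exact two-sided permutation tests over 70 splits, and a count of 0 entered as 0.5. The replicate numbers came from the labels. Deviations from the group means correlated between same-numbered tumours at 0.272, 0.421, 0.175 and 0.376, with a mean of -0.105 for other combinations. The numbers were therefore taken to pair the tumours. The main fit and the permutation tests did not use this pairing, and only the replicate block did. The labels do not name the mice, so p-values measure the spread between these samples. Within a group, counts of any pair of tumours differed by at least 13.3 times the variance of sampling noise (chi-square per degree of freedom), so no library was counted as a duplicate. Floors of 3 counts cover counting error only.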

Additional observations from a re-analysis of the deposited data

Results flagged for a closer look

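For each tested member and group of 4 tumours, the distance of the most extreme tumour from its nearest neighbour was divided by the range of the group, and a value above Dixon's critical value for 4 samples singled out 6 of 112 groups. Chance gives about 1 in 20. The VC group held 3 of them: Il1a in replicate 4 (8.34 CPM), Il16 in replicate 4 (41.9 CPM) and Il5 in replicate 1 (1.77 CPM), each the highest of the group. The miR-21-KD group held the others: Il1r2 in replicate 1 (59.3 CPM) and Il4ra in replicate 3 (1262 CPM), both high, and Il12rb1 in replicate 3 (6.90 CPM), which was low. Il5, Il1a and Il4ra were called in every refit that left out a tumour, Il1r2 was not, and Il16 was called once VC replicate 4 was left out.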

How the results depend on the processing

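All 28 called members kept their direction in each of the 7 other settings and 8 fits without a tumour that gave a value, Il4, Il5, Il17re and Il31ra having none where 10 counts in every tumour were required. In the 7 settings 24 kept their call, and 14 did in all fits, among them Il1rn, Il1a, Il5, Il13, Il13ra2, Il4ra, Il7r and Il2ra. The replicate block changed no call of a member besides those given with the results. With it, 4 members were lower, and the counts called higher were 10 in the IL-1, 5 in the IL-6 and 2 in the IL-17 family and 1 outside the families, while 1 was lower in each of the IL-12 and IL-13 families, type 2 immunity, JAK-STAT genes and type 2 context. DESeq2 called 5 members lower, with 2 higher in IL-12, 2 in IL-17 and 5 in IL-6, and 1 lower in each of IL-12, IL-13, common gamma chain, type 2 immunity and JAK-STAT genes, and 2 in type 2 context. Of the partner chains and related ligands it called 3 lower. Upper-quartile scaling left 1 member lower, 0 of them in IL-6, 2 higher in IL-17 and 1 gene of the partner chains and related ligands lower. Requiring 10 counts in every tumour left 1 member lower and 0 in IL-6. Limma-voom gave 1 lower in IL-12 and 0 higher in IL-17. Without the filter 1 gene of the partner chains and related ligands was lower. Library size scaling gave 1 lower JAK-STAT and 1 lower type 2 context gene. Il12b (adjusted p = 0.0509) and Il15 (0.0501) lost their calls without the filter, Il17re with limma-voom (0.0707), and Il6ra with upper-quartile scaling (0.0560) and 10 counts in every tumour (0.0668). Members not called with edgeR passed with DESeq2 for Il1f9 (1.07), Il23a (-1.18), Il12rb2 (0.96), Il13ra1 (-0.53), Il17ra (0.29), Il11 (1.02), Il6 (1.09) and Il7 (-0.92), with limma-voom for Il23a (-1.42) and Il6 (1.22), and for Il17ra also with upper-quartile scaling (0.31) and 10 counts in every tumour (0.32). DESeq2 made more false calls than edgeR on simulated data, so calls it alone added carry less weight. Relative to Ptprc, 15 members were lower in all 4 pairs of the replicate block (26.8%, background 72.4%) and 7 higher (12.5%, background 4.24%), counts added after seeing the data. The cause was not tested.

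Across fits without a tumour, 14 to 28 members were higher and 0 to 4 lower. Counts called higher were 4 to 8 in IL-1, 4 to 9 in common gamma chain, 4 to 4 in IL-13, 2 to 4 in IL-6, 0 to 2 in IL-12, 0 to 3 in IL-10, 0 to 2 in IL-17, 0 to 1 outside the families, 1 to 5 in type 1 and 4 to 7 in type 2 immunity. Lower were 0 to 1 in IL-1, common gamma chain, IL-13, IL-6, IL-12, type 1 and type 2 immunity. Among other genes, partner chains and related ligands had 6 to 8 higher and 0 to 3 lower, JAK-STAT 3 to 7 and 0 to 1, IL-1 and IL-17 signalling 2 to 5 and 2 to 3, type 1 context 2 to 7 higher, and type 2 context 8 to 10 and 0 to 2. Members not called that turned sign were Il18bp (from -0.0933 without VC replicate 2 to 0.238 without VC replicate 4), Il1rap (from -0.0734 without VC replicate 4 to 0.163 without VC replicate 1), Il24 (from -0.10 without miR-21-KD replicate 2 to 0.80 without VC replicate 3), Il27 (from -0.0122 without VC replicate 2 to 0.59 without VC replicate 4) and Il12rb1 (0.0008 with limma-voom, and from -0.44 without VC replicate 1 to 0.28 without VC replicate 4). Depth limits what can be said of the 27 members under the filter.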

Other observations

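Members that fell under the filter on low counts were mostly ligands. In a fit without that filter, Il21 had a log2 fold change of 1.44 ± 0.55 (SE, edgeR adjusted p = 0.0782) and Il2 one of 1.67 ± 0.74 (adjusted p = 0.124), and neither passed. Il22ra2, the soluble IL-22 binding protein, had 11 counts in miR-21-KD replicate 4 and 2 or fewer in every other tumour. Il23r, the IL-23 binding chain, had 5 counts in VC replicate 4 and 0 in the other VC tumours, against 9, 2, 2 and 5 in the miR-21-KD tumours. Il20ra, a chain of the IL-19, IL-20 and IL-24 receptors, had 12 counts in VC replicate 1 and 9 at most elsewhere. The IL-17 ligands Il17b, Il17c and Il17d had 8 counts at most in any tumour.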
